A study of Homo sapiens with 8 samples.

Results

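H3K4me1 peaks were described at 10 genes that encode AP-1 subunits and close relatives: JUN, JUNB and JUND, FOS, FOSB, FOSL1 and FOSL2, ATF3 and BATF3, and MAF. The genes were chosen by name, and they are 10 of the 19970 protein-coding genes measured. For each gene, the bases under peaks were counted in its RefSeq GRCh38 record with 5 kb, and separately with 50 kb, on either side. The cells were MDA-MB-231, an established human cell line from a triple-negative breast cancer, in 2 genotypes: control, and a knockout of ARID1A, whose product is the large DNA-binding component of the BAF form of the SWI/SNF chromatin remodeller. Each genotype had 2 samples immunoprecipitated for H3K4me1 and 2 input samples, 8 in all, and no treatment is given in the labels. The labels do not say how the knockout was made or whether it is 1 clone.

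The authors deposited 1 peak list per genotype, with 82994 control and 73600 knockout peaks on the chromosomes used, so no spread between replicates could be computed and no test was run. A gene was called higher or lower in the knockout list when its covered bases differed by 1000 or more. Neither list gave reads, so depth is unknown. The protocol text names an H3K4me3 antibody, whereas the antibody label and the titles name H3K4me1. At the ARID1A gene itself 44673 control and 39191 knockout bases were covered, a value that does not check the knockout, since a mark on a gene says nothing of its protein. Of 5 mesenchymal-like markers that fit the line (VIM, CD44, AXL, CAV1, MSN), 5 carried peaks in each list. Of 5 luminal markers, 5 carried control peaks and 4 knockout peaks, ESR1 and GATA3 among them, so the presence of a peak did not separate the 2 marker lists.

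AP-1 is a family of dimers of basic leucine zipper proteins, mainly Jun with Fos or ATF partners, that bind the TPA response element and the closely related cyclic AMP response element. JUN, FOS, JUNB, FOSB and ATF3 are immediate-early genes, switched on within minutes by growth factors, kinases and stress, whereas FRA-1, the product of FOSL1, is kept high in many triple-negative breast cancer lines. H3K4me1 marks enhancers and the flanks of active promoters, and is commonly low at the start site itself, where H3K4me3 takes its place.

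The AP-1 genes' own promoters were searched for the family's binding motifs, because several of these genes are known to be regulated by AP-1 and ATF proteins. RefSeq promoter entries (GRCh38.p14, 250 bases before the start to 50 after) matched 8 of the 10 genes by symbol. FOSL1 and BATF3 were the others. The letters TGANTCA (TPA response element) and TGACNTCA (cyclic AMP response element), read on both strands, and the CArG box, the serum response factor element, were looked for in the 300 bases. The first 2 motifs cannot match from the same first base. A match was found at 5 of the 8 genes, against 13.4% of 13791 coding promoters with any of the 3 motifs, 5.78% with TGANTCA, 6.95% with TGACNTCA and 1.22% with a CArG box. A match is a description of letters, not of a bound site. The 5 promoters with a match are printed, each 5′ to 3′ on the gene's strand up to 15 transcribed bases, with the match in capitals.

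JUN: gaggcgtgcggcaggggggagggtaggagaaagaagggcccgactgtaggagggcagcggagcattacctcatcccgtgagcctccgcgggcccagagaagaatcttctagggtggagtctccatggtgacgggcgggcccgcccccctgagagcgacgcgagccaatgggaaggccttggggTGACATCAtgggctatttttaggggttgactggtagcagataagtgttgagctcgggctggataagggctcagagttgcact
JUND: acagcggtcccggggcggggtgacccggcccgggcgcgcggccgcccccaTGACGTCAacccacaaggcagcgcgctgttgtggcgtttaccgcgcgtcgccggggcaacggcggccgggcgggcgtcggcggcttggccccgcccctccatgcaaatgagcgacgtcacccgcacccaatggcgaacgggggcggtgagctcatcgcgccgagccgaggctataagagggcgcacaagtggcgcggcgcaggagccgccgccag
FOSL2: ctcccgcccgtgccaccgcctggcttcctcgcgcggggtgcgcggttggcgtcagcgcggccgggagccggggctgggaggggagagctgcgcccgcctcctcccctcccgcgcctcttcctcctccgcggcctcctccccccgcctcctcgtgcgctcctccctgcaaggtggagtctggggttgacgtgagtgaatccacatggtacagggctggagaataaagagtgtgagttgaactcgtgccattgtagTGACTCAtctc
ATF3: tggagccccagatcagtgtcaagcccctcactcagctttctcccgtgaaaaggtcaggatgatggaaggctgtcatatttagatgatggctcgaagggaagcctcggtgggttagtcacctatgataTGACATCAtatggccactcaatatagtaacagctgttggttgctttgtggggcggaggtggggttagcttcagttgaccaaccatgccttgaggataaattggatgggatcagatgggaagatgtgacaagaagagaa
MAF: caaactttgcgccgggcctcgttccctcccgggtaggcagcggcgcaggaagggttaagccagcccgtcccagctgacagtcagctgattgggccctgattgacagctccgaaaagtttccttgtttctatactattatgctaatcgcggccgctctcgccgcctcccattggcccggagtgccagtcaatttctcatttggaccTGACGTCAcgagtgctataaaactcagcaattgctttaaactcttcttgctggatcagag

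These are chr1:58784033-58784297 (minus strand), chr19:18281608-18281872 (minus), chr2:28392608-28392872 (plus), chr1:212565157-212565421 (plus) and chr16:79600723-79600987 (minus). The matches begin 67 bases before the start of JUN, 200 before that of JUND, 123 before that of ATF3 and 45 before that of MAF, and at transcribed base 5 of FOSL2. JUN and ATF3 hold TGACATCA, a form known in the JUN promoter as the element bound by Jun with ATF2, JUND and MAF hold TGACGTCA, and FOSL2 holds TGACTCA. No match was in the windows of JUNB, FOS or FOSB, or at the second annotated start of ATF3.

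None of the 8 start sites lay under a control peak, and 1, that of MAF, lay under a knockout peak. Over 13791 coding genes the start lay under a control peak in 14.0%, under a knockout peak in 24.6%, and under a knockout peak alone in 14.0%. The peaks instead flanked the starts. The gap in the control and the knockout list was 3178 and 3113 bases at JUND, 3520 and 3606 at ATF3, 4920 and 4509 at JUN, 5594 and 5729 at JUNB, and 7069 and 6479 at FOSL2. At these 5 genes the flanking peaks were in both lists and the motif of JUN, JUND, ATF3 and FOSL2 lay in the unmarked gap. FOS, FOSB and MAF were the genes where a flank differed between the lists, as described for each below.

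In the record with 5 kb either side, JUNB, JUND and MAF were called higher in the knockout list and ATF3 and BATF3 lower, and 5 genes differed by less than 1000 bases. That is 3 of 10 higher, where 20.2% of all coding genes were called higher, and 2 of 10 lower, against 30.0%, so neither count stands far from its background. With 50 kb either side, all 10 passed the threshold, 5 higher (JUNB, JUND, FOSL1, FOSL2, MAF) and 5 lower (JUN, FOS, FOSB, ATF3, BATF3), where 26.2% and 46.0% of all coding genes were called. The median difference was 424 bases for the 10 genes and 0 for all genes at 5 kb, and 979 and -635 at 50 kb. Most of the genes lay in richly marked surroundings: the median share of the 50 kb window under peaks was 23.0% in the control and 22.1% in the knockout list, against 9.08% and 8.45% over all genes. MAF, with 3.09% and 5.07%, and FOS in the knockout list, with 8.18%, lay below the median of all genes. Summed over the 10 windows, covered bases were 253675 and 262882 at 50 kb, and 70836 and 70589 at 5 kb. At 50 kb MAF alone differed by 9894 bases, more than the sums did. Peaks in the 34361 bases shared by the 50 kb windows of ATF3 and BATF3 entered the sums with both genes.

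**Figure D1:**
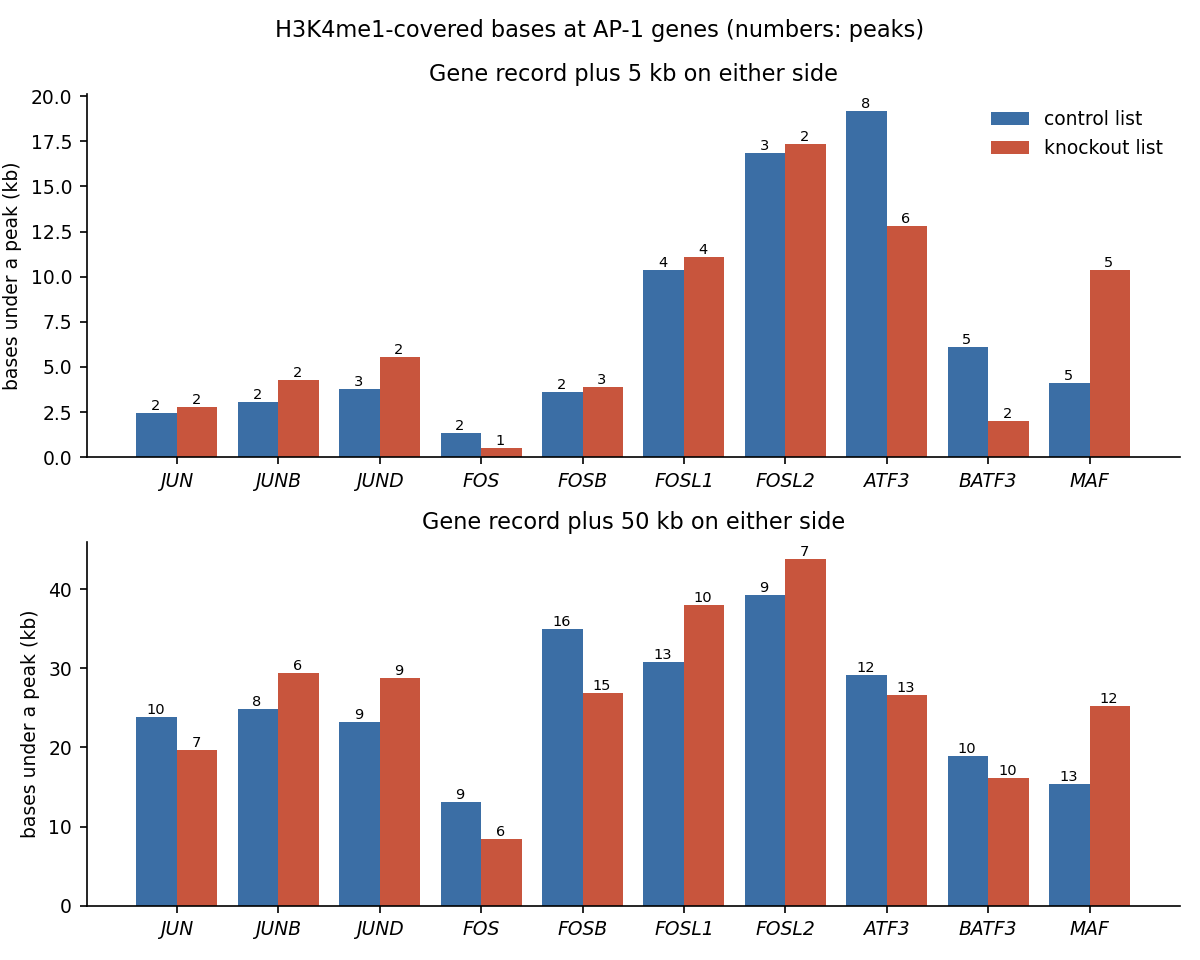
Bases under H3K4me1 peaks (vertical axis) at each of the 10 AP-1 genes in the control and the knockout list, in the record with 5 kb (one panel) and with 50 kb (the other panel) either side, with the number of peaks over each bar. Each bar is 1 list with no replicate, and at 50 kb 5 genes stand higher and 5 lower in the knockout list.

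The Jun genes differed among themselves. JUN (chr1:58780791-58784047), the founding member and the main transactivating partner of Fos proteins, had 2436 control and 2773 knockout bases at 5 kb, in 2 peaks each. At 50 kb it had 23903 bases in 10 control peaks and 19670 in 7 knockout peaks, a difference of -4233. All 7 knockout peaks overlapped control peaks, and the 3 control peaks without a counterpart lay downstream of the gene. The strongest of those 3, chr1:58746048-58747287, had a −log10 q of 4.0, while the strongest peak of the window, at chr1:58752064-58757524 for control and chr1:58752211-58757170 for knockout, had 14.4 and 16.5. The fold over input of that strongest peak was 6.15 in the control and 5.89 in the knockout list. With peaks of −log10 q of at least 5 alone the difference was -4109. That filter dropped a knockout peak of 2576 bases with a −log10 q of 4.5, and kept its control counterpart of 2713 bases, with 9.4. The -4109 therefore does not show a fall that is free of weaker peaks. Shared distal peaks were narrower in the knockout list, such as the one with 3487 control and 2548 knockout bases upstream. The exception was a downstream peak with 3040 control and 3161 knockout bases. The pair of peaks next to the gene stood in both lists.

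JUNB (chr19:12791486-12793315), a weaker activator that can restrain JUN, had 3032 control and 4265 knockout bases at 5 kb and 24808 and 29415 at 50 kb. A single knockout peak of 17189 bases upstream, chr19:12771395-12788583, spanned 3 control peaks of 8384, 4678 and 826 bases, so that the larger number of knockout bases came with fewer peaks, 6 against 8. No control peak at JUNB lacked a counterpart. The JUNB windows also overlapped 2 other coding genes at 5 kb and 8 at 50 kb.

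JUND (chr19:18279694-18281622), the Jun protein known for steady rather than induced expression, had 3796 and 5539 bases at 5 kb and 23270 and 28731 at 50 kb. Here too a knockout peak of 6588 bases downstream joined control peaks of 3787 and 1085 bases, and one of 6756 bases upstream spanned 3 control peaks. All 9 control peaks had a counterpart. At 50 kb the JUND window overlapped 4 other coding genes. The peak next to the start, chr19:18282403-18283338 in the control list, lay at almost the same position in the knockout list, 795 bases upstream of the start against 781. Its −log10 q was 6.0 in the control and 9.7 in the knockout list, while its fold over input was 4.32 and 3.82. The median −log10 q of all peaks was 3.18 in the control and 3.77 in the knockout list.

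JUNB and JUND were also the genes where the input background implied by the authors' values differed most between the lists. The background was taken from each peak's pileup and fold, and its knockout-to-control ratio was divided by the genome-wide ratio of 1.25. In the 50 kb windows it was 1.61 at JUNB and 1.64 at JUND, and over the surrounding 5 Mb on either side 1.31 and 1.43, whereas FOSB on the same chromosome had 0.834 over 5 Mb and chromosome 19 as a whole 0.998. At ATF3 and BATF3, which were lower in the knockout list, it was 1.35 and 1.33, and 1.31 over 5 Mb. At the remaining 6 genes it ran from 0.921 (FOSL1) to 1.26 (FOS). Its part in the differences was not tested.

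**Figure D2:**
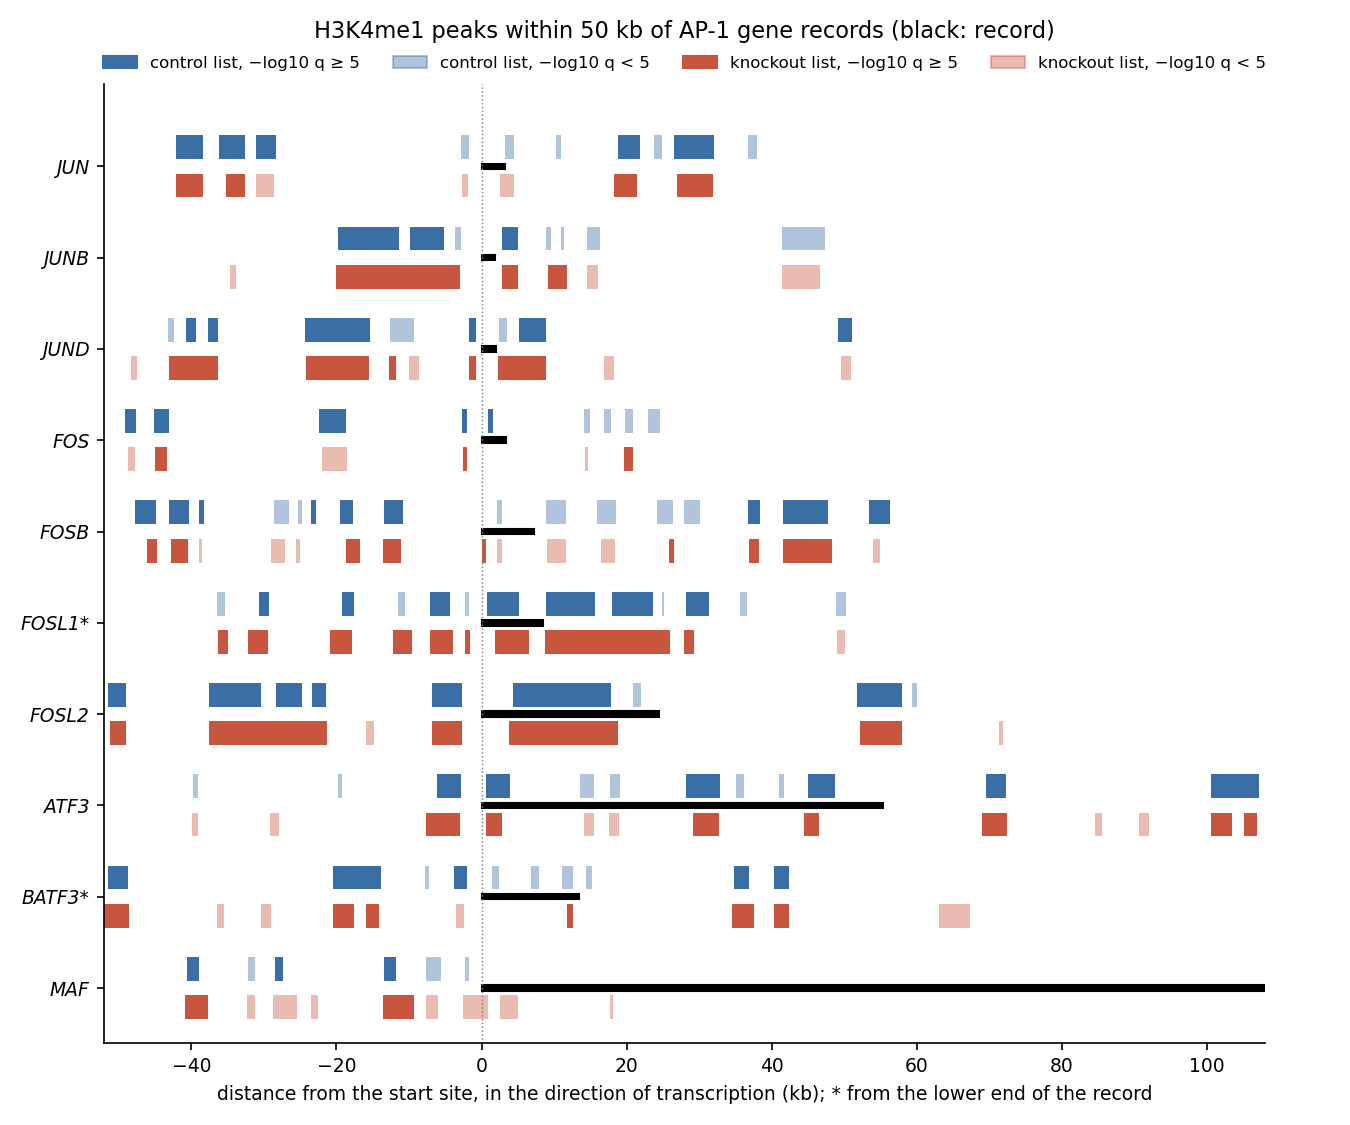
Peaks of the control and the knockout list around each AP-1 gene, by distance in kb from the start site (for FOSL1 and BATF3, marked with an asterisk, from the lower end of the record). Dark bars are peaks at or above −log10 q 5, pale bars weaker ones, and black bars the gene record; wide knockout peaks span several control peaks at JUNB, JUND, FOSL1 and FOSL2, and MAF peaks farther downstream than the axis are not drawn.

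Among the Fos genes, FOS and FOSB were lower in the knockout list at 50 kb and the FRA genes FOSL1 and FOSL2 higher. FOS (chr14:75278828-75282230), the prototype induced partner of JUN, had 1345 control and 505 knockout bases at 5 kb, a difference of -840 that does not reach the threshold, and 13157 and 8458 bases at 50 kb. A control peak of 634 bases inside the gene, chr14:75279719-75280352, lies 891 bases downstream of the start with a −log10 q of 5.2. The nearest knockout peak was 2926 bases from it, so the gap around the FOS start was 2917 bases in the control and 16252 in the knockout list. All 6 knockout peaks overlapped control peaks.

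FOSB (chr19:45467996-45475179), whose spliced form ΔFosB accumulates on repeated stimulation, differed the other way beside its start. A knockout peak at chr19:45468112-45468666, 116 bases downstream of the start with a −log10 q of 5.2, had no control counterpart, and the gap fell from 12957 to 11170 bases. The 5 kb totals were 3583 and 3886 bases. At 50 kb FOSB had 34987 bases in 16 control peaks and 26852 in 15 knockout peaks, a difference of -8135. The strongest single-list control peak there, chr19:45444513-45445163 with a −log10 q of 7.8, lies inside ERCC1, a DNA repair gene. The 50 kb window of FOSB thus takes in neighbouring genes, and 4 other coding genes overlapped it. Most of the fall was in shared peaks that were narrower in the knockout list, such as the one 53375 bases downstream of the start, with 2873 control and 1022 knockout bases.

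FOSL1 (chr11:65892049-65900545), which encodes FRA-1, was the most densely covered of the 10 genes in the 5 kb window. There, 10355 control and 11107 knockout bases amounted to 56.0% and 60.0% of the window, above 98.0% and 98.9% of all coding genes. That window overlapped 2 other coding genes and the 50 kb window 10, so the cover is not that of FOSL1 alone. At 50 kb it had 30829 bases in 13 control and 37991 in 10 knockout peaks, or 28.4% and 35.0% of the window, where FOSL2 had 31.6% and 35.2%. A knockout peak of 17313 bases beside the record, chr11:65900766-65918078 (−log10 q 19.4), spanned 3 control peaks of 6858, 5539 and 364 bases, the second of which, chr11:65910082-65915620, reached 23.9. The 10 knockout peaks all had control counterparts, and the single-list control peak of highest rank had a −log10 q of only 1.4.

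FOSL2 (chr2:28392858-28417317), which encodes FRA-2, had 16843 and 17354 bases at 5 kb, or 48.9% and 50.4% of the window. These shares lay above 96.3% and 97.3% of all coding genes. One intragenic peak accounted for most of this, with 13496 bases in the control and 15017 in the knockout list. That peak was wider in the knockout list, but its fold over input was lower, at 4.91 against 6.44 in the control. Its −log10 q was lower in the knockout list too. At 50 kb FOSL2 had 39291 and 43788 bases, and a knockout peak of 16266 bases upstream, chr2:28355232-28371497, spanned control peaks of 7201, 3591 and 1846 bases. The strongest peak of the 10 windows in the knockout list lay downstream of FOSL2, at chr2:28444979-28450733 with a −log10 q of 25.4, and its control counterpart chr2:28444554-28450841 had 21.9. Fold over input was 6.05 for the knockout peak and 6.29 for the control peak.

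ATF3 and BATF3 lie side by side on chromosome 1, with 65639 bases between their records, and were lower in the knockout list at both window sizes. Their 50 kb windows share 34361 bases, with 2 control and 5 knockout peaks counted in both, so at that size they are not separate observations, while their 5 kb windows do not meet. ATF3 (chr1:212565407-212620777), a stress-induced factor that mostly represses, had 19190 bases in 8 control peaks and 12794 in 6 knockout peaks at 5 kb, a difference of -6396. At 50 kb the difference was -2539, from 29172 to 26633 bases. Within the record, 2 control peaks (chr1:212600424-212601555 and chr1:212606352-212607083, −log10 q 3.1 and 2.9) had no counterpart. The shared peaks of the record were narrower in the knockout list. The strongest of them had 4751 control and 3665 knockout bases, with −log10 q of 10.2 and 9.8. With peaks of −log10 q of at least 5 alone the difference at 5 kb was -3896. The peak before the second start (chr1:212615018) also ended farther away, 860 bases from it in the control and 3045 in the knockout list. Around the first start the flanking peaks were in both lists.

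BATF3 (chr1:212686417-212699840), a partner of Jun proteins best known for the development of cross-presenting dendritic cells, had 6120 bases in 5 control peaks and 1977 in 2 knockout peaks at 5 kb, a difference of -4143. The 3 control peaks missing from the knockout list were weak, with −log10 q of 1.2, 2.0 and 1.1, and the lowest value in either list was 1.01. The 2 shared peaks were narrower in the knockout list. The strongest control peak, chr1:212682581-212684408, had 1828 bases and a −log10 q of 9.1, and its knockout counterpart 1098 bases and 4.6. The other had 1477 control and 879 knockout bases, with 3.5 and 6.4. At 50 kb the difference was -2808, from 18890 to 16082 bases. Between the 2 genes a control peak of 6661 bases, chr1:212665937-212672597, faced knockout peaks of 2930 and 1857 bases. The same interval held the strongest peak of this locus found in the knockout list alone, chr1:212655994-212657398, with a −log10 q of 4.7.

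MAF (chr16:79202622-79600737) encodes c-MAF, a long Maf protein with a leucine zipper and its own recognition element, and its RefSeq record is 398116 bases long. At 5 kb it had 4136 control and 10389 knockout bases, which is 1.01% and 2.55% of the window, and at 50 kb 15368 and 25262, a difference of 9894. A knockout peak of 3409 bases, chr16:79599859-79603267, covered the start and the whole promoter window printed above. Its −log10 q was 3.9. The control list had a peak of 511 bases 1751 bases upstream and nothing downstream until 227090 bases from the start. Upstream of the gene most shared peaks were wider in the knockout list. The one that began 11783 bases before the start among control peaks had 1680 control and 4260 knockout bases. Its −log10 q was 7.8 in the control and 7.4 in the knockout list, and its fold over input 4.39 and 3.89. The other shared peaks more than 5 kb upstream also had lower −log10 q and fold in the knockout list. The control peak of 511 bases nearer the start had a −log10 q of 1.3, below the 3.9 of its knockout counterpart. When only peaks at or above −log10 q 5 were kept, MAF had 0 bases in both lists at 5 kb, so that call rests on weak peaks.

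**Figure D3:**
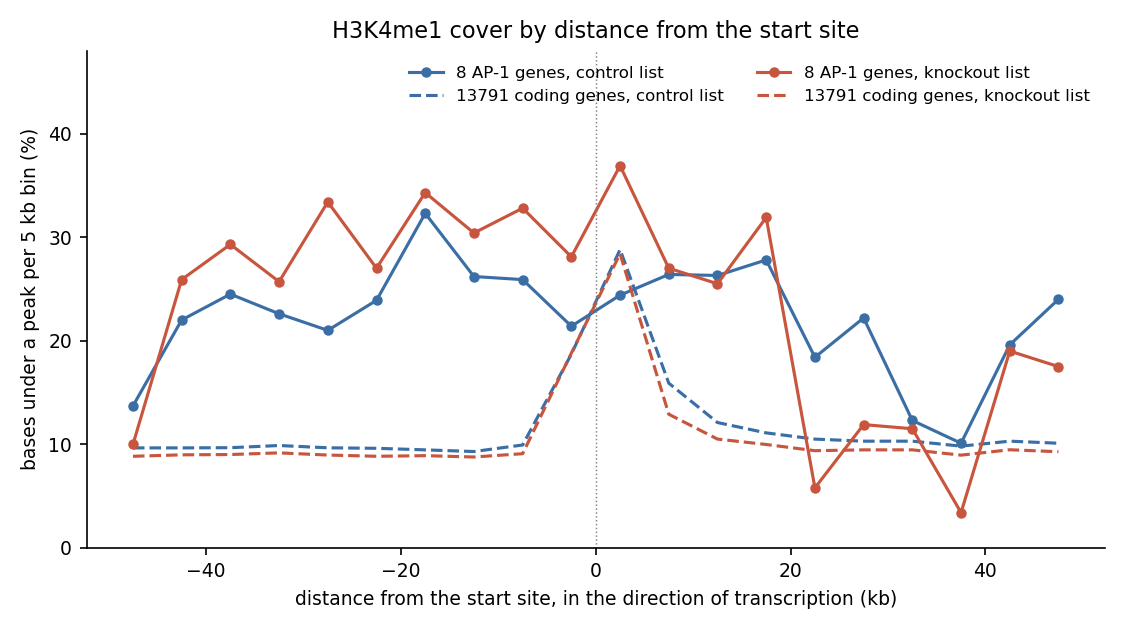
Percent of bases under peaks in bins of 5 kb by distance from the start site (kb), for the 8 AP-1 genes with a start in the tables used (solid lines) and for 13791 coding genes (dashed lines), in the control and knockout lists. The AP-1 genes stand above all coding genes in every upstream bin of both lists, and downstream of 5000 bases in every bin except 20000 to 25000 and 35000 to 40000 bases in the knockout list.

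Coverage around the 8 starts was set against 13791 coding genes as a description. From 5 to 50 kb upstream, 23.6% of bases were under control and 27.6% under knockout peaks at the AP-1 genes, against 9.65% and 8.95% at all coding genes. Downstream over the same range it was 20.8% and 17.0%, against 11.2% and 9.93%. Within 5 kb of the start it was 22.9% and 32.5%, against 23.8% and 23.6%. Without MAF, left out after its weak knockout peaks there were seen, it was 25.4% and 28.8% over 7 genes. The AP-1 genes were thus more covered than other genes at a distance and close to them near the start in the control list. Pooled over the 8 genes, the upstream side was higher and the downstream side lower in the knockout than in the control list. The genes did not all go this way. Upstream of JUN and FOS the shared peaks were narrower in the knockout list, whereas most of those of MAF were wider, though lower in fold beyond 5 kb. MAF was not left out of the distal values.

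The peaks of the 10 windows were next compared one by one, counting each once. There were 107 in the control and 90 in the knockout list, with median widths of 1680 and 1955.5 bases, against 1386 and 1587 over the whole lists. Of the 107, 23 (21.5%, 95% exact binomial interval 14.1 to 30.5) overlapped no knockout peak, against 28.2% of the whole control list (27.9 to 28.5). Of the 90, 13 (14.4%, 7.92 to 23.4) overlapped no control peak, against 21.3% (21.0 to 21.6). The intervals cover counting error over peaks only, and both intervals include the share of the whole list. A −log10 q of at least 5 was reached by 54 control peaks (50.5%, 40.6 to 60.3) and 49 knockout peaks (54.4%, 43.6 to 65.0), against 28.8% and 37.5% over the lists. Pooled over the 10 windows, the peaks were therefore wide and strong for their lists. The windows take in neighbouring genes, and the comparison is with all peaks of each list, not with those near genes alone. Single genes can differ: most MAF peaks lay below a −log10 q of 5 in both lists. Knockout peaks that overlapped 2 or more control peaks numbered 7 (7.78%, 3.18 to 15.4), against 4.94% of the whole list, and control peaks that overlapped 2 or more knockout peaks numbered 2 (1.87%), against 2.36%.

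The smallest gap between neighbouring peaks was 1249 bases for control and 1445 for knockout, so the lists merged neighbours at different distances. When the same merging distance of 1444 bases and the same shortest peak were applied to both lists, all 10 genes kept their call at both window sizes. With peaks of −log10 q of at least 5, all 10 kept their call at 50 kb, where 38.0% of all genes were then higher and 27.1% lower. At 5 kb and that threshold FOSL1 (1289) and FOSL2 (1584) joined the higher genes while BATF3 (-949) and MAF (0) left the calls. There, 26.7% of all genes were higher and 17.7% lower. The BATF3 value sets a control peak of 1828 bases against a different knockout peak, of 879 bases. A fold of at least 4 gave another picture at 50 kb: 2 genes were higher and 8 lower, where 21.9% and 34.9% of all genes were called. JUNB (-15268), JUND (-17226) and MAF (-1680) changed direction. The implied background ratio was 1.61, 1.64 and 1.12 at these 3 genes, and its part was not tested. At 50 kb FOSL1 and FOSL2 stayed higher, and JUN, FOS, FOSB, ATF3 and BATF3 stayed lower, under both thresholds and in the 25000 strongest peaks of each list. At 5 kb a fold of at least 4 turned FOSL1 from 752 to -5038.

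**Figure D4:**
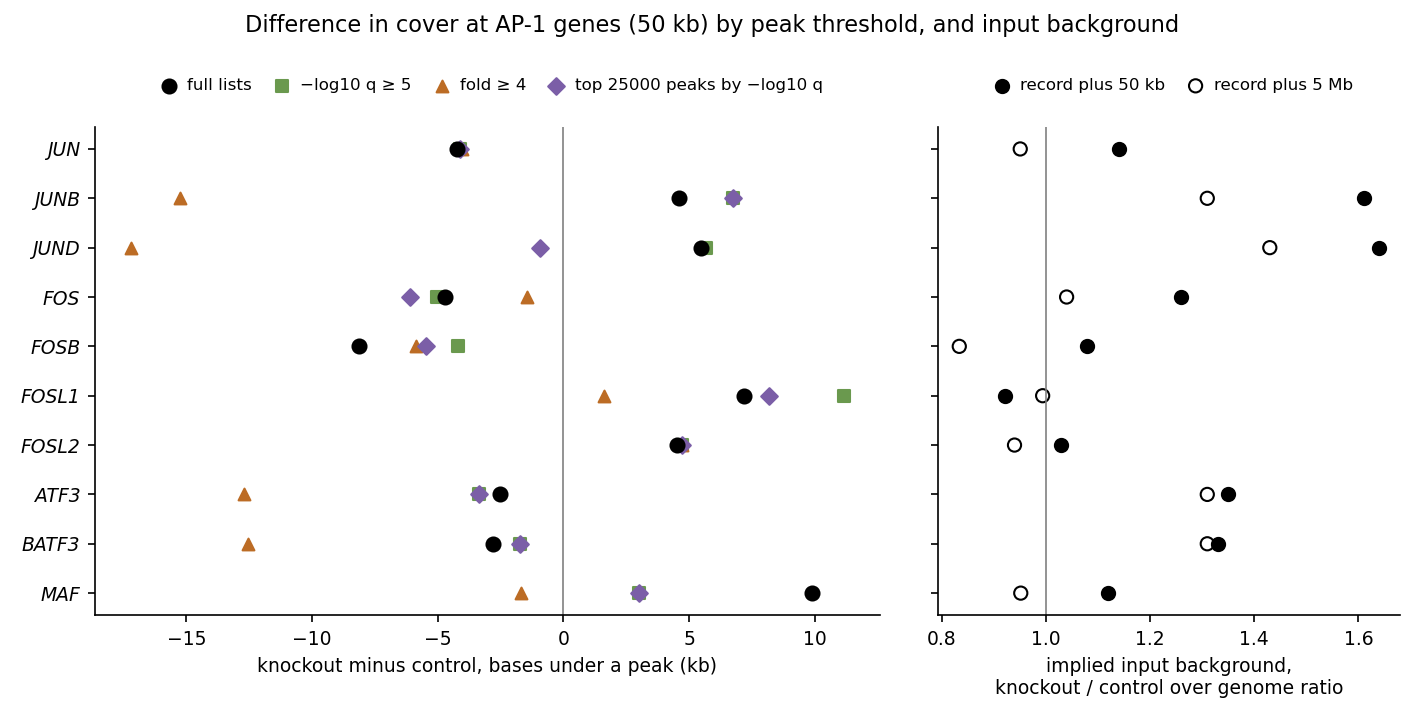
Difference in covered bases, knockout minus control, at 50 kb for each AP-1 gene under the full lists, −log10 q of at least 5, fold of at least 4 and the 25000 strongest peaks (one panel), and the implied input background ratio divided by the genome-wide ratio in the 50 kb window (filled) and over 5 Mb on either side (open; the other panel). JUNB, JUND and MAF turn negative with the fold threshold, and their background ratios in the 50 kb window are 1.61, 1.64 and 1.12.

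The wider AP-1 pathway was taken from 4 lists, given at 5 kb. Among 20 other basic leucine zipper genes, 2 were higher in the knockout list and 9 lower, with a median difference of -432.5 bases, where 20.2% of all coding genes were higher and 30.0% lower with a median of 0. CREB5, a CRE-binding partner of Jun, had 51118 control and 26323 knockout bases, and NFE2L1, a cap'n'collar factor of proteasome genes, 16622 and 8187. The higher genes were ATF2, the Jun partner at cyclic AMP response elements, with 18445 and 21087 bases, and its relative ATF7 with 12728 and 17536, whose difference at 50 kb was -2586. MAFA had no peak in either list.

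Of 16 genes of the kinase cascades that act on AP-1, 4 were higher and 10 lower, with a median of -2000.5 bases, beside the same 20.2% and 30.0% of all genes. MAPK8, which encodes the JNK1 kinase of JUN, had 23436 control and 13873 knockout bases. MAPK10, the JNK gene known mainly from neurons, had 16993 and 26016, and MAP2K2, which encodes MEK2, 6502 and 9051, with a difference of -846 at 50 kb. Of 14 other immediate-early genes, 2 were higher and 7 lower, with a median of -897 bases, again beside 20.2% and 30.0%. ELK4, a ternary complex factor, had 9451 and 5612 bases and NR4A1, an orphan nuclear receptor, 10537 and 7611, but with −log10 q of at least 5 their differences were 2477 and 1421. CCN1, a matricellular protein gene, had 3302 and 4517, with a difference of -525 at 50 kb, and KLF6, a zinc finger factor gene, 5541 and 7986.

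Of 20 genes known as AP-1 targets, 9 were higher and 2 lower, with a median of 660.5 bases, where 20.2% of all genes were higher and 30.0% lower. ITGA2, an integrin subunit of the collagen receptor, had 30049 control and 59062 knockout bases, and CD44, the hyaluronan receptor, 44927 and 55499. HBEGF, an EGF receptor ligand, had 17546 and 12280. MMP1, the interstitial collagenase and a classical AP-1 target, had 1176 bases in the control list and no knockout peak, and MMP10 had no peak in either list. These splits depended on the threshold and the window. With −log10 q of at least 5, where 26.7% of all genes were higher and 17.7% lower, the basic leucine zipper list had 7 higher and 7 lower, the kinase list 6 and 5, the immediate-early list 6 and 0, and the target list 10 and 2. MMP1 is at 0 in both lists there, and PLAUR, the urokinase receptor gene, at a difference of -1496 (named after its value was seen). At 50 kb the target list had 8 higher and 10 lower, where 26.2% of all genes were higher and 46.0% lower.

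**Figure D5:**
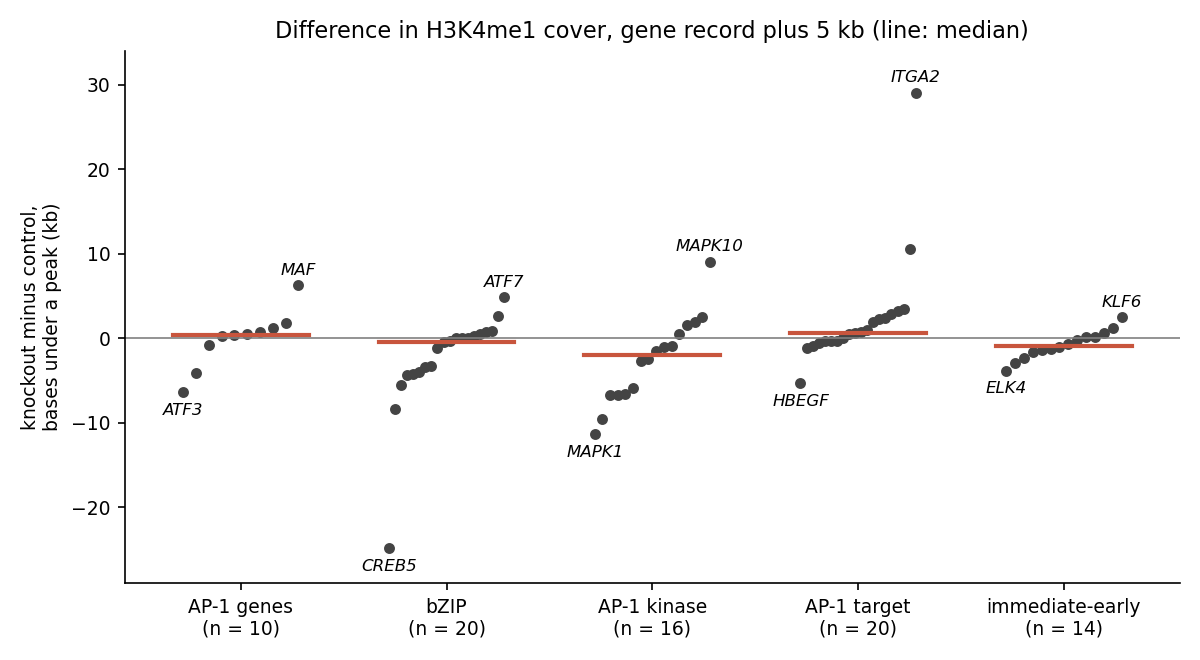
Difference in covered bases, knockout minus control, at 5 kb for each gene of the AP-1 genes (n = 10) and of the lists of other basic leucine zipper genes (20), kinases (16), targets (20) and immediate-early genes (14). Each dot is 1 gene and the line the median, which is 660.5 for the targets and -2000.5 for the kinases.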

How the data were processed

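H3K4me1 ChIP-seq was compared between control and ARID1A-knockout MDA-MB-231 cells, grouped by the genotype and antibody labels. The submitters' processing notes name MACS2 2.2.6, Bowtie2 2.3.5.1 and hg38. The authors deposited 1 list per genotype with, per the file headers, the position, pileup signal, fold (a ratio to input) and −log10 q of each peak. These were used to describe, rank or filter peaks within a list, and pileup and fold gave the implied background compared between the lists. Where fold or −log10 q of matching peaks stand side by side, they were not scaled for depth. Whether replicates were merged before calling is not stated in these sources, and each list was taken as 1 pooled sample. Of 83000 control and 73603 knockout peaks, 6 and 3 off chromosomes 1 to 22 and X were left out.

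Peaks were intersected with RefSeq GRCh38.p14 gene records in Python 3.11.15 (pandas 2.3.3), a step tested on simulated data. Input background was (pileup + 1) / fold − 1, assuming the default MACS2 pseudocount of 1. The genes and lists were chosen with earlier results of these data known. From each list, up to 2 genes called in each direction were named, and 1 gene that this rule named is not reported here. Alternatives were other windows, thresholds, widths and merging distances.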

Additional observations from a re-analysis of the deposited data

How the results depend on the processing

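No paired analysis was possible because each genotype had 1 pooled list, and for the same reason leaving out a replicate was not run. At 5 kb, the 3 genes called higher became 1 with fold of at least 4, 5 when called at 500 bases and 1 at 2000 bases, and the 2 called lower became 1 with −log10 q of at least 5, 5 with fold of at least 4, 0 in the 10 kb around the start and 1 when called at 10 percentage points. At 50 kb, the 5 higher became 2 with fold of at least 4, 3 around the start and 0 at 10 percentage points, and the 5 lower became 8, 0 and 0, and 2 in the record with 10 kb. At 5 kb, fold of at least 4 turned JUNB to -2206, JUND to -2711 and FOSL1 to -5038, the top 25000 peaks turned JUND to -1782, and the start window turned ATF3 to 277. At 50 kb, fold of at least 4 turned JUNB to -15268, JUND to -17226 and MAF to -1680, the top 25000 turned JUND to -930, and the start window turned JUN to 337, FOSB to 372 and ATF3 to 277. The start window holds fewer bases and 8 genes; the cause of the other changes was not tested. Knockout peaks of the 10 windows without a counterpart went from 14.4% to 25.6% when 50% overlap was asked. The share of the whole knockout list at 50% overlap is not given here. The 21.3% above is for any overlap, so 25.6% cannot be set against it. With −log10 q of at least 5, basic leucine zipper genes higher went from 2 to 7, kinases lower from 10 to 5, and immediate-early genes from 2 to 6 higher and 7 to 0 lower, with ELK4 at 2477 and NR4A1 at 1421. Of all genes, 26.7% were then higher and 17.7% lower. At 50 kb basic leucine zipper genes higher were 4 and targets lower 10, where 26.2% of all genes were higher and 46.0% lower. ATF7 (-2586), MAP2K2 (-846) and CCN1 (-525) turned negative at 50 kb. Dropping peaks under 500 bases changed no call of the 10 genes. Depth is unknown, so peaks near the threshold cannot be weighed by reads.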
